A study of Mus musculus with 8 samples.

Results

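Translation initiation and elongation factors were followed in poly(A) RNA sequencing of macrophages grown from mouse bone marrow and labelled as Il19-tdT positive or Il19-tdT negative. The genes were taken from the deposited count table as those whose symbol starts with Eif1, Eif2, Eif3, Eif4, Eif5, Eif6 or Eef and that had 10 or more counts in at least 4 of the 8 libraries. Eif2ak2, an interferon-induced kinase gene, was left out. This gave 62 of 17823 genes. Eef1a2 matched the symbols but reached 10 counts in only 1 library. Eif3j1 and Eif3j2 carry the same counts in all 8 libraries, so the 62 genes hold 61 separate measurements.

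The tdT-positive group and the tdT-negative group have 4 libraries each, numbered 1 to 4 in both and called biological replicates in the labels. All 8 libraries come from C57BL/6 marrow cultured with 20 ng of M-CSF for 7 days and given 1 µg/ml of lipopolysaccharide (LPS), the bacterial product that activates Toll-like receptor 4. The tdT label reports on Il19, an Il10-family cytokine gene. The sources used here do not give how the positive cells were separated from the negative ones, how long LPS was present, or if libraries of the same number share a mouse. The p-values therefore measure the spread between these samples.

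Initiation factors bring the small ribosomal subunit, the initiator tRNA and the capped mRNA together. eIF2 carries the initiator tRNA in its GTP form and is recharged by eIF2B, eIF3 is the large scaffold on the small subunit, and eIF4E, eIF4G and eIF4A bind the cap and unwind the leader. Elongation factor eEF1A then delivers aminoacyl-tRNAs, the eEF1B complex exchanges its GDP for GTP, and eEF2 moves the ribosome along the mRNA. Activated macrophages rely on these steps for the output of cytokine proteins, and phosphorylation of eIF2 and release of eIF4E from its binding proteins are the classical points of control.

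Depth ran from 49850537 to 58516454 counts per library, so that 1 count is 0.0163 to 0.0232 CPM (counts scaled to library size). tdT-positive library 3 held 6115229 counts of Rn45s, a ribosomal RNA precursor, against 163283 to 414654 in the other 7. Il19 was at 145 to 234 CPM in tdT-positive libraries, against 9.17 to 17.0 CPM in tdT-negative libraries. Macrophage markers were present in every library, 9 genes summing to 14337 to 18759 CPM in tdT-positive libraries, against 12074 to 21730 CPM in tdT-negative libraries, with Lyz2 at a mean of 5663 CPM in the tdT-positive group, against 6210 CPM in the tdT-negative group. Of these 9 genes 2 rose and 7 did not pass, and 3 had a fold change below 0.

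The translation factors were slightly lower in tdT-positive macrophages, most of all among the eEF1 subunits and several eIF3 subunits, while Eif4g3 was higher. With the replicate number as a block, 15 of the 62 genes fell, 1 rose and 46 did not pass an adjusted p of 0.05 (edgeR quasi-likelihood test, Benjamini-Hochberg over 12610 genes). In the same fit 7.81% of all genes tested fell and 8.03% rose, against 24.2% and 1.61% of the translation factors. The median log2 fold change, tdT positive over tdT negative, was -0.17 among the translation factors and 0.01 among all genes tested. The fold change was below 0 for 52 of the 62 genes, against 49.2% of all genes. The 15 genes that fell had 13.3% to 31.4% less transcript in the tdT-positive libraries, all under a 2-fold change, as did 3.72% of all genes tested. Among the 57 translation factors of at least 10 CPM, 15 fell and 1 rose, against 5.31% and 10.8% of all genes at that level.

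Without the replicate number in the model, no translation factor passed, and 3 of 12610 genes did, 0.00793% as higher and 0.0159% as lower. In that edgeR fit Eif3e, Eef1g and Eef1b2 had adjusted p = 0.0580, 0.0737 and 0.0890. Eef1a1 and Eif4ebp1 had 0.490 and 0.645 there. At an unadjusted p under 0.05 that fit held 15 translation factors as lower and 1 as higher, against 8.81% and 7.51% of all genes. DESeq2 without the block called 7 lower and 1 higher, against 4.74% and 2.61% of all genes. In counts simulated from these libraries, edgeR without the block recovered 0% of the genes set to differ by 0.25 on the log2 scale and 6% of those set to differ by 0.5, and with the block 10% and 80%, with 17 false calls among 12410 unchanged genes. The simulated counts had differences between numbers built in, so the block was bound to recover more. They therefore cannot decide between the fits. In them, differences of 0.25 and 0.5 were mostly not detected without the block. Libraries of the same number varied together across genes, least clearly in number 2. Every call below is therefore from the blocked fit unless stated otherwise.

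Several markers of other cells fell in the tdT-positive libraries, and their part in the lower translation factors was not tested. In bulk RNA, fewer cells of a type and less RNA per cell cannot be told apart. Of 11 stromal markers tested 10 fell, with the 12 listed genes at 63.8 to 156 CPM in tdT-positive libraries, against 266 to 2334 CPM in tdT-negative libraries. Of 5 granulocyte precursor markers tested 4 fell, with the 8 listed summing to 3.18 to 6.81 CPM tdT positive, 14.4 to 274 CPM tdT negative, and Elane, Prtn3 and Ctsg had no count in the tdT-positive libraries. Of 7 monocyte markers 3 fell (119 to 429 CPM tdT positive, 160 to 475 CPM tdT negative), of 8 osteoclast markers 4 fell (128 to 327 CPM tdT positive, 109 to 2860 CPM tdT negative), and of 4 dendritic cell markers tested 3 fell (5.45 to 9.96 CPM tdT positive, 20.9 to 34.4 CPM tdT negative). tdT-negative library 4 stood apart in its group, with the highest stromal sum, 2334 CPM beside 266 to 583 CPM in the other 3, and the lowest granulocyte sum, 14.4 CPM beside 139 to 274 CPM. It also held the highest osteoclast sum, 2860 CPM beside 109 to 257 CPM, and in numbers 1 and 3 the osteoclast sum was higher in the tdT-positive library. Of 15 proliferation genes 4 fell, among them Top2a and Rrm2, and all 15 summed to 157 to 208 CPM in tdT-positive libraries, against 194 to 262 CPM in tdT-negative libraries. The lists of B, T and NK cells and of erythroid and megakaryocyte cells summed to at most 1.19 CPM in every library, and of mast cells and their relatives only Hdc (mean 59.2 CPM tdT positive, 72.1 CPM tdT negative) was above the filter, and it fell. Cd3e, Hba-a1, Hba-a2, Fcer1a, Ms4a2 and Epx had no count in the tdT-positive libraries, and Cd3d had none in the tdT-negative ones.

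**Figure D1:**
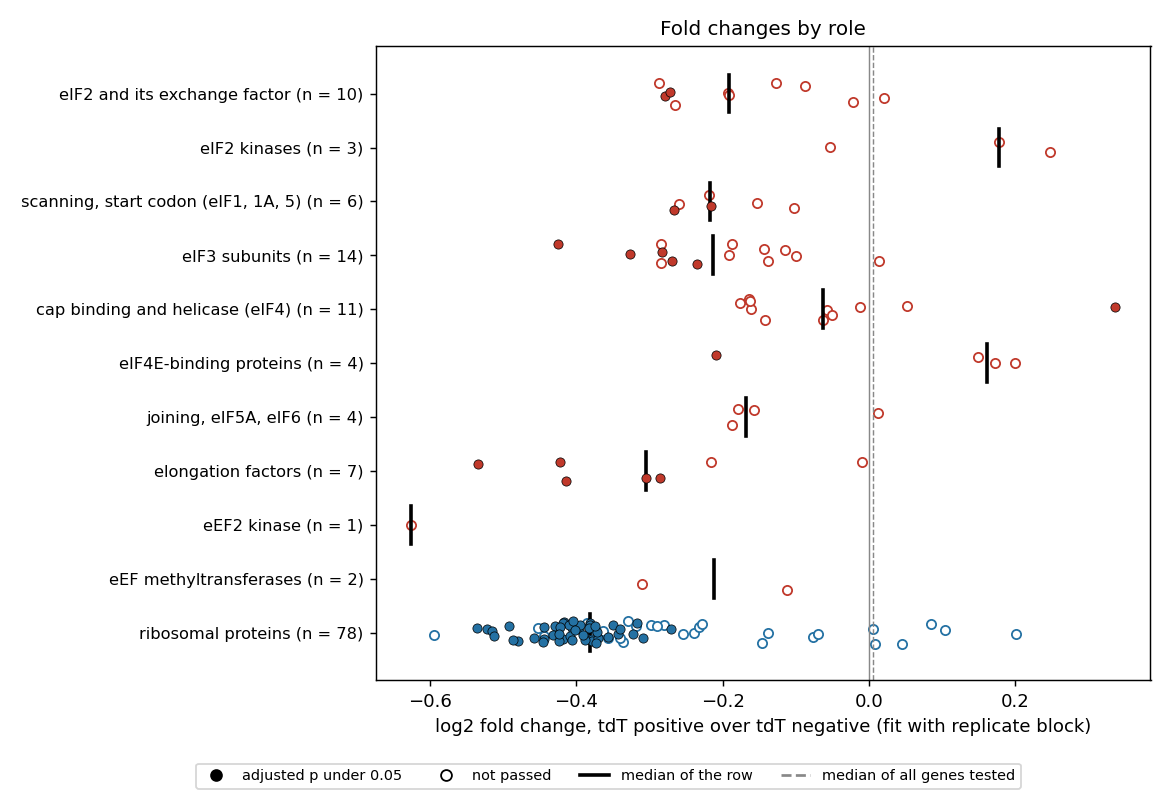
Log2 fold change of each translation factor gene and each ribosomal protein gene, tdT positive over tdT negative, from the blocked fit, which includes the replicate number (n = 4 libraries per group). Filled points passed an adjusted p of 0.05, open points did not, black bars are row medians and the dashed line is the median of all genes tested. Elongation factors had a median of -0.30 and eIF3 subunits of -0.21, whereas eIF2 kinases had a median of 0.18.

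Elongation factors showed the lowest median of any role with more than 2 genes. Of 7 genes, 5 fell and 2 did not pass, with a median log2 fold change of -0.30. Eef1b2, which encodes the nucleotide exchange subunit of eEF1B (Entrez 55949, chromosome 1 at 63176831 to 63180486 of GRCm38), had 87.1, 90.01, 89.2 and 109 CPM in tdT-positive libraries 1 to 4, against 113, 121, 148 and 164 CPM in tdT-negative libraries 1 to 4. All 4 tdT-positive libraries lay below all 4 tdT-negative ones. The exact permutation p was 0.0286, the smallest possible here, and 0.127 after adjustment over the 62 genes. Eef1b2 averaged 93.8 ± 10.2 CPM in tdT-positive libraries, against 137 ± 23.7 CPM in tdT-negative libraries (SD, n = 4 each), and fell by 0.53 on the log2 scale (SE 0.0735, adjusted p = 0.00955).

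Eef1g, the structural subunit of the same complex, had 61.99, 69.1, 73.9 and 63.5 CPM in tdT-positive libraries, against 78.4, 90.9, 101 and 89.8 CPM in tdT-negative libraries. The levels of Eef1g did not overlap between the groups, and it fell by 0.42 (SE 0.0553, adjusted p = 0.00921). Eef1d, the other exchange subunit, averaged 52.3 ± 6.09 CPM in tdT-positive macrophages, against 65.0 ± 11.4 CPM in tdT-negative ones, and fell by 0.30 (adjusted p = 0.0196). The groups of Eef1d overlapped, because tdT-positive library 3, at 60.6 CPM, lay above tdT-negative library 1, at 55.0 CPM. Library 3 was the highest of its group on both sides.

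Eef1a1, which encodes the tRNA carrier, was the most abundant translation factor per length, at 1008 RPKM (CPM per kilobase of the deposited gene length) in tdT-positive libraries, against 1221 RPKM in tdT-negative libraries. It had 1848, 1610, 2262 and 1494 CPM in tdT-positive libraries, against 2224, 1974, 2599 and 1942 CPM in tdT-negative libraries. It was lower in each of the 4 numbers although the groups overlapped, and it fell by 0.29 (SE 0.0731, adjusted p = 0.0405). That call was lost when any 1 of the 4 numbers was left out (adjusted p = 0.0550 to 0.164). Eef2, the translocation factor, had a log2 fold change of -0.22 and did not pass (1277 ± 69.0 CPM tdT positive, 1487 ± 133 CPM tdT negative, adjusted p = 0.136). In number 3 its level in the tdT-positive library, 1316 CPM, was next to that in the tdT-negative library, 1320 CPM.

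Eef1e1, which is named as an elongation factor but encodes a scaffold protein of the aminoacyl-tRNA synthetase complex, fell by 0.41 (17.1 ± 4.09 CPM tdT positive, 22.7 ± 5.09 CPM tdT negative, adjusted p = 0.0160). Eefsec, the selenocysteine-specific factor, had 17.2 ± 2.13 CPM in the tdT-positive group, against 17.3 ± 1.97 CPM in the tdT-negative group, a log2 fold change of -0.01 (adjusted p = 0.956). Eef2k, the kinase that inhibits eEF2, was the least abundant per length, at 0.364 RPKM in tdT-positive libraries, against 0.634 RPKM in tdT-negative libraries. It had 1.55, 2.50, 3.20 and 2.53 CPM in tdT-positive libraries and 2.07, 2.97, 3.21 and 8.80 CPM in tdT-negative libraries, so that library 4 of the tdT-negative group stood alone, and it did not pass (log2 fold change -0.63, adjusted p = 0.186). The methyltransferase genes Eef1akmt1 and Eef2kmt had log2 fold changes of -0.31 and -0.11 and did not pass either.

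**Figure D2:**
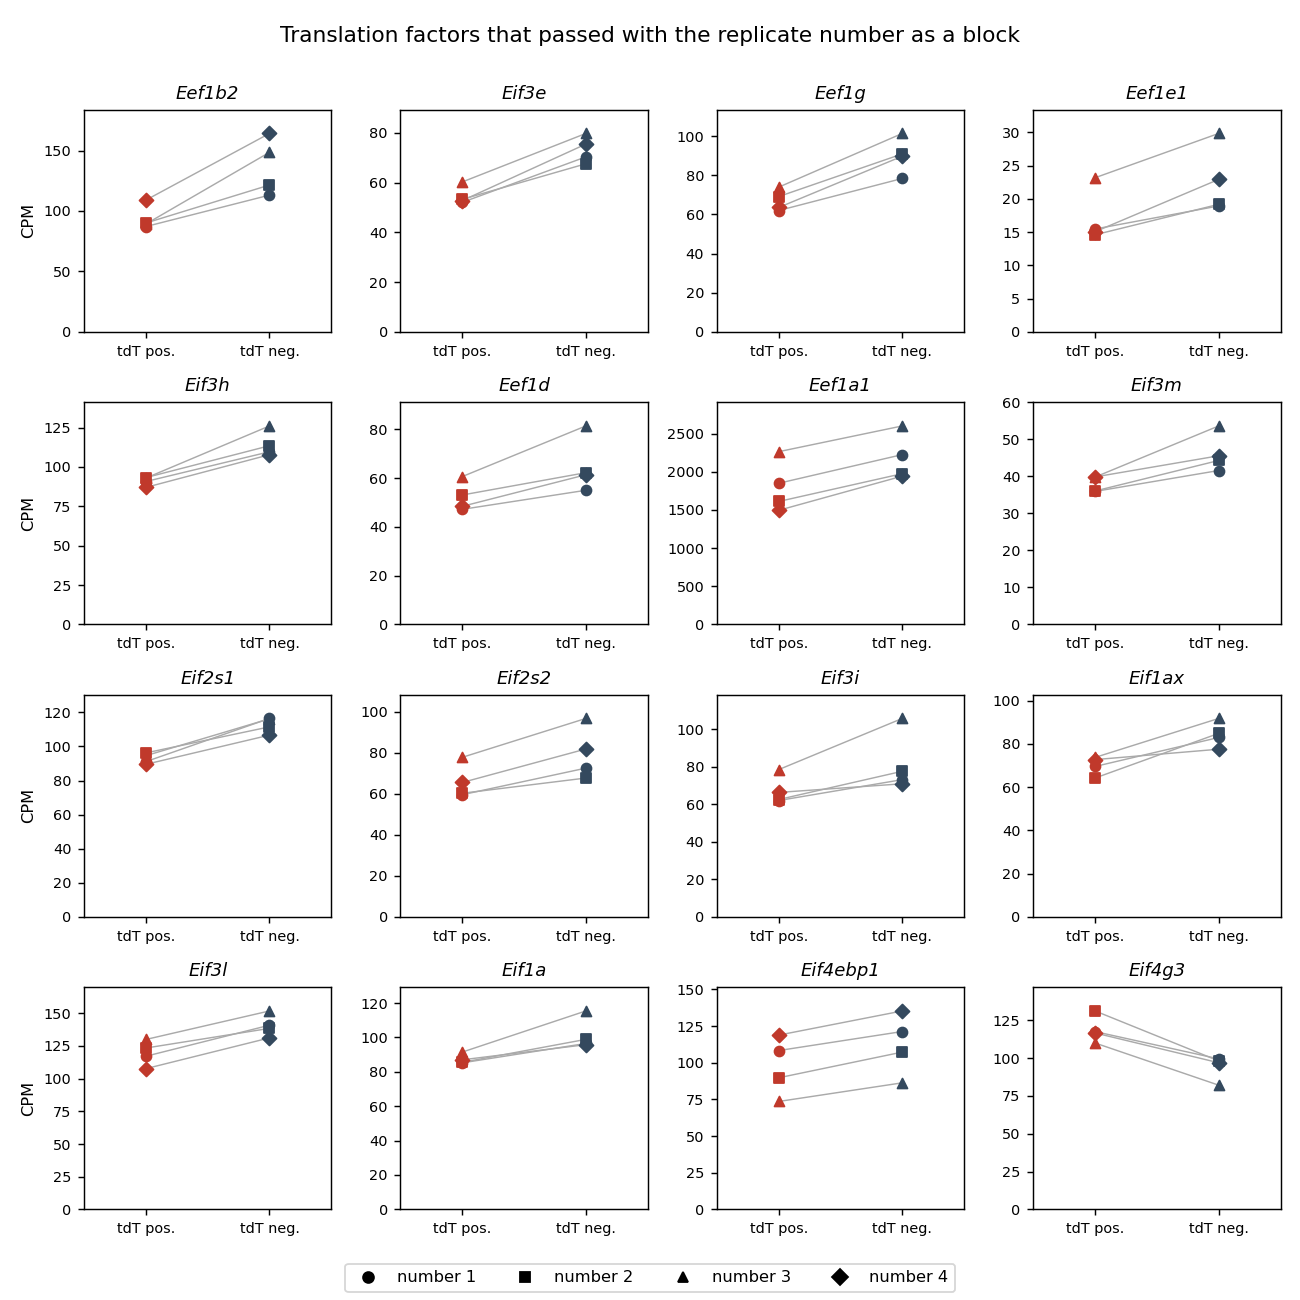
Level in CPM in each library for the 16 translation factor genes that passed with the replicate number as a block, tdT positive on the left and tdT negative on the right of each panel. Marker shapes give the replicate number and grey lines join libraries of the same number. Every line slopes upward to the tdT-negative library except in Eif4g3, where every line slopes downward.

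Of the 14 rows for eIF3 subunits, 5 fell and 9 did not pass, with a median log2 fold change of -0.21. Eif3e had 52.0, 53.3, 60.2 and 52.7 CPM in tdT-positive libraries, against 70.3, 67.5, 79.7 and 75.4 CPM in tdT-negative libraries. The groups did not overlap, and Eif3e fell by 0.42 (54.6 ± 3.81 CPM tdT positive, 73.3 ± 5.42 CPM tdT negative, SE 0.0565, adjusted p = 0.00941). Eif3h had 90.7, 93.2, 92.9 and 87.0 CPM in tdT-positive libraries, against 110, 113, 126 and 108 CPM in tdT-negative libraries. Eif3h fell by 0.33 (SE 0.0569, adjusted p = 0.0140). Eif3m, Eif3i and Eif3l fell by 0.28, 0.27 and 0.24 (adjusted p = 0.0291, 0.0384 and 0.0318).

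The subunit genes Eif3a and Eif3b did not pass. Eif3a, the largest subunit, had 273 ± 19.0 CPM in tdT-positive libraries, against 270 ± 12.2 CPM in tdT-negative ones (0.01 on the log2 scale, SE 0.0651, adjusted p = 0.907). Eif3b had a log2 fold change of -0.14 and Eif3c of -0.14, and Eif3c was the most abundant subunit per length at 111 RPKM in tdT-positive libraries, against 122 RPKM in tdT-negative libraries. Eif3d, Eif3f, Eif3g and Eif3k lay between -0.10 and -0.19. The shared counts of Eif3j1 and Eif3j2, on chromosomes 2 and 18, gave -0.28 (adjusted p = 0.0588). Whether the fold changes of the subunits differ from each other was not tested.

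Of 10 genes for eIF2, its exchange factor eIF2B and the alternative tRNA carriers Eif2a and Eif2d, 2 fell and 8 did not pass, with a median of -0.19. Eif2s1, the alpha subunit on which the stress kinases act, had 91.1, 96.2, 94.6 and 89.5 CPM in tdT-positive libraries, against 116, 111, 116 and 107 CPM in tdT-negative libraries. The groups did not overlap, and Eif2s1 fell by 0.28 (92.8 ± 3.08 CPM tdT positive, 113 ± 4.63 CPM tdT negative, SE 0.0548, adjusted p = 0.0190). Eif2s2, the beta subunit, fell by 0.27 (adjusted p = 0.0211), with library 3 highest in both groups. Eif2s3x, the X-linked gamma subunit, also had -0.27 but at 10.04 ± 1.60 CPM in the tdT-positive group, against 12.03 ± 1.50 CPM in the tdT-negative group, it did not pass (adjusted p = 0.0676). Among the eIF2B subunits the catalytic subunit gene Eif2b5 had -0.19 and Eif2b3 had -0.29 (adjusted p = 0.0559 and 0.0538), whereas Eif2b2 and Eif2b4 had -0.02 and 0.02 and Eif2b1 had -0.13. Eif2a had -0.19 and Eif2d -0.09.

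The 3 eIF2 kinase genes did not pass, with a median of 0.18. Eif2ak4 (GCN2, a sensor of amino acid shortage) had 13.8, 16.1, 14.9 and 21.0 CPM in tdT-positive libraries, against 12.7, 12.6, 12.7 and 17.2 CPM in tdT-negative libraries. It was higher in each of the 4 numbers, by a log2 fold change of 0.25, and did not pass (adjusted p = 0.0606). Eif2ak1, the haem-regulated kinase, had 87.6 ± 5.11 CPM in the tdT-positive group, against 78.1 ± 12.6 CPM in the tdT-negative group (0.18, adjusted p = 0.126), and Eif2ak3, the endoplasmic reticulum kinase PERK, had 17.0 ± 3.35 CPM in the tdT-positive group, against 17.6 ± 2.68 CPM in the tdT-negative group.

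Of 6 genes grouped with scanning and start codon choice, 2 fell and 4 did not pass, with a median of -0.22. Eif1a and the X-linked Eif1ax encode closely related forms of eIF1A, which opens the small subunit for scanning. Eif1ax had 69.5, 64.2, 73.7 and 72.7 CPM in tdT-positive libraries, against 82.9, 84.8, 91.7 and 77.5 CPM in tdT-negative libraries, and fell by 0.27 (adjusted p = 0.0366). Eif1a fell by 0.22 (87.3 ± 2.89 CPM tdT positive, 102 ± 9.27 CPM tdT negative, adjusted p = 0.0459). Neither gene overlapped between the groups. Eif1, which guards against wrong start codons, and its copy Eif1b did not overlap either and had -0.22 and -0.26, without passing (adjusted p = 0.0784 and 0.0590). Eif5, which makes eIF2 hydrolyse its GTP, and Eif1ad had -0.10 and -0.15. Reads of close copies cannot be assigned with certainty, because the sources used here do not say how reads with several matches were counted.

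The genes of cap binding and unwinding went both ways around a median of -0.06, with 1 of 11 higher, none lower and 10 that did not pass. Eif4g3, a scaffold that joins the cap-binding protein to the helicase (Entrez 230861, chromosome 4 at 137991779 to 138207086 of GRCm38), had 118, 131, 110 and 117 CPM in tdT-positive libraries, against 99.5, 98.1, 82.1 and 96.9 CPM in tdT-negative libraries. It was the only translation factor whose tdT-positive libraries all lay above the tdT-negative ones, and it rose by 0.34 (119 ± 8.89 CPM tdT positive, 94.2 ± 8.11 CPM tdT negative, SE 0.0600, adjusted p = 0.0148). Leaving out number 2 or number 3 ended that call (adjusted p = 0.0944 in the first case, 0.0607 in the other). Its paralogue Eif4g1 had 386 ± 29.5 CPM in the tdT-positive group, against 373 ± 33.5 CPM in the tdT-negative group, a log2 fold change of 0.05 that did not pass.

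Eif4g2, which encodes a related scaffold without the cap-binding protein's site, was abundant at 220 RPKM in tdT-positive libraries, against 248 RPKM in tdT-negative libraries. Its level ran from 1462 to 1933 CPM in the tdT-positive and from 1620 to 2325 CPM in the tdT-negative group, and it did not pass (log2 fold change -0.16, adjusted p = 0.167). The cap-binding protein gene Eif4e and the helicase gene Eif4a1 had -0.16 and -0.18 (adjusted p = 0.0878 and 0.1002). Eif4a2, the second helicase gene, had 98.02, 96.6, 102 and 106 CPM in tdT-positive libraries and 86.1, 84.9, 148 and 98.6 CPM in tdT-negative libraries, so that number 3 pointed the other way from the remaining numbers. The helicase cofactors Eif4b and Eif4h had -0.14 and -0.05, the cap-binding relatives Eif4e2 and Eif4e3 both had -0.06, and Eif4a3, the helicase of the exon junction complex, had -0.16.

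Among the eIF4E-binding proteins, which hold eIF4E back from the scaffold when they are not phosphorylated by mTOR, Eif4ebp1 fell and the others had positive fold changes that did not pass. Eif4ebp1 had 108, 89.7, 73.6 and 119 CPM in tdT-positive libraries, against 121, 107, 86.3 and 135 CPM in tdT-negative libraries. The levels differed more between numbers than between groups, and within each number the tdT-positive library was lower. Eif4ebp1 fell by 0.21 (SE 0.0530, adjusted p = 0.0390). Eif4ebp2, Eif4ebp3 and Eif4enif1, an eIF4E transporter, had 0.17, 0.20 and 0.15 and were each higher in 4 of 4 numbers (adjusted p = 0.190, 0.226 and 0.133). Of the genes for subunit joining and late steps, none passed. Eif5a, whose protein carries hypusine and helps stalled ribosomes, had 379 ± 49.5 CPM in the tdT-positive group, against 430 ± 28.3 CPM in the tdT-negative group (-0.19, adjusted p = 0.106), Eif6, which keeps the large subunit apart, had -0.16, and Eif5b, the joining GTPase, had 0.01. Eif5a2, a low-level copy of Eif5a at 0.900 RPKM in tdT-positive libraries, against 1.02 RPKM in tdT-negative libraries, had -0.18.

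Over all 62 genes, the groups did not overlap in 13 with tdT positive lower and in 1 with tdT positive higher, against 5.92% and 5.46% of all genes tested. In all 4 numbers the tdT-positive library was lower for 36 of the 62 genes and higher for 6, against 19.6% and 21.9% of all genes tested. The median log2 ratio of the 62 genes was -0.19, -0.16, -0.16 and -0.14 in numbers 1 to 4. The count of genes that passed depended on single numbers more than the median did. Without number 1, 5 fell and 1 rose, without number 2 and without number 3 only 3 fell and none rose, and without number 4, 18 fell and 1 rose. Eef1b2, Eef1g and Eif3e were called lower in each of these, and without number 1 Eef1e1 and Eif3h were too. Removing the counts of Rn45s and Lars2 left the same 16 genes called, and without number 3 the median of the translation factors was -0.19.

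Beside these, ribosomal protein genes were lower by a larger median. Of 78 tested of 80 listed, 48 fell (61.5%), none rose and 30 did not pass, with a median log2 fold change of -0.38. Rpl4, a large-subunit protein gene, had 396, 408, 470 and 445 CPM in tdT-positive libraries, against 475, 521, 591 and 599 CPM in tdT-negative libraries, and fell by 0.34 (adjusted p = 0.0169). Rpsa, Rps2 and Rps3a1, of the small subunit, fell by 0.52, 0.44 and 0.46 (adjusted p = 0.00852, 0.00921 and 0.00955). Their median in numbers 1 to 4 was -0.25, -0.35, -0.60 and -0.27, so that number 3 was the lowest, and without number 1, 2, 3 or 4 the count that fell was 19, 4, 8 or 56, whereas the translation factors had about the same median in every number. Levels of ribosomal protein genes ran down to a mean of 0.0950 CPM (Rpl23a), and among those tested to 0.160 CPM (Rpl38), and the counting of reads that match their many processed pseudogenes is unknown, which holds for Eef1a1 too. Whether ribosomal proteins and translation factors differ was not tested.

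**Figure D3:**
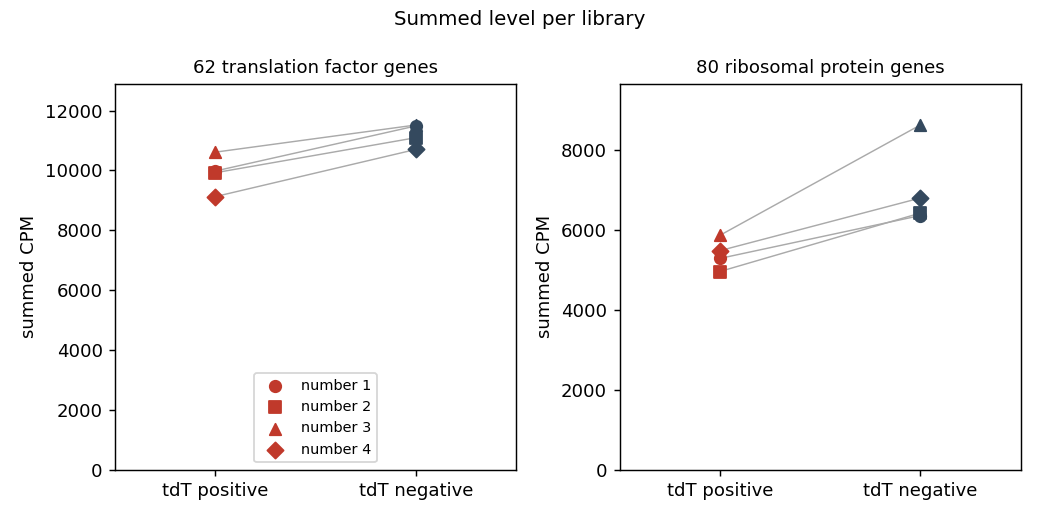
Summed CPM of the 62 translation factor genes (left) and of the 80 ribosomal protein genes (right) in each library, tdT positive beside tdT negative, with lines joining libraries of the same number. Translation factors summed to 9909 ± 609 CPM in tdT-positive libraries, against 11199 ± 384 CPM in tdT-negative libraries, and ribosomal proteins to 5406 ± 379 CPM with tdT positive, against 7062 ± 1069 CPM with tdT negative (SD, n = 4 each).

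Translation factor transcripts made up 0.918% to 1.02% of all counts in tdT-positive libraries and 1.11% to 1.23% in tdT-negative libraries. Their summed level was 11.5% lower on average in the tdT-positive group, and that of ribosomal proteins 23.5% lower. In neither set did the groups overlap. Much of the translation factor sum lay in Eef1a1, Eef2 and Eif4g2. Without them, the other 59 genes summed to 4964 to 5444 CPM in tdT-positive libraries, against 5488 to 5893 CPM in tdT-negative libraries. The summed level of the elongation factors ran from 2951 to 3845 CPM in the tdT-positive and from 3842 to 4299 CPM in the tdT-negative group, so that these groups overlapped at 1 library each.

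Ribosomal protein mRNAs and a few factor mRNAs share a 5′ terminal oligopyrimidine tract, through which mTOR controls their translation, and in human cells the genes for the eEF1 subunits, eEF2 and the e, f and h subunits of eIF3 are known to carry it. Of these 8 genes, 6 fell and 2, Eef2 and Eif3f, did not pass, with a median of -0.32, and of the other 54 translation factors 9 fell and 1 rose, with a median of -0.15. This grouping was made after the values were known, and the list of 8 may not be complete. The counts and medians describe the grouping only and are no test of it. Of the 8 genes, only Eef1a1 and Eif3f showed a tract in the search described below, and Eef1b2 showed none. Genes without a RefSeq promoter could not be searched. The 7 translation factors with such a tract at a start, and a ribosomal protein gene, are shown to let the tract be compared with the fold changes. Each window runs from 10 bases before to 20 bases after a RefSeq start (GRCm38.p6). The starts used for Eif2ak4, Eif2b5 and Eif4g1 lie inside the annotated gene, not at its first base, and Eif2ak4 begins at chr2:118388583. The fold changes are per gene, not per start. Capitals mark the first C followed by 5 or more C or T bases inside the window searched, from 5 bases before to 10 bases after the start, and end at its edge, so a tract may run on or recur in lower case. In the order shown, the log2 fold changes of the translation factors were -0.29, -0.27, -0.24, -0.19, -0.19, 0.05 and 0.25, of which Eef1a1 and Eif3l passed.
Eef1a1, chr9:78481705-78481734, minus strand: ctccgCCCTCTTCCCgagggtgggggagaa
Eif2s3x, chrX:94212632-94212661, minus strand: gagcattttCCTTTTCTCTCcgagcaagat
Eif3l, chr15:79075213-79075242, plus strand: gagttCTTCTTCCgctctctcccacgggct
Eif2b5, chr16:20498807-20498836, plus strand: ctctttCTCTCCCTgcaactacaccttcgc
Eif3f, chr7:108934405-108934434, plus strand: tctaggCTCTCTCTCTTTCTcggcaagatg
Eif4g1, chr16:20672717-20672746, plus strand: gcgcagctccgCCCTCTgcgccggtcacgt
Eif2ak4, chr2:118389102-118389131, plus strand: ccttccaaccattCTTCCCCacactgactc
Rps6, chr4:86857348-86857377, minus strand: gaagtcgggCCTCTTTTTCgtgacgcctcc

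Such a tract was sought on the sense strand, within 5 bases before to 10 bases after the start. A gene with several starts was counted if any start held it. The tract was found in 27 of 59 ribosomal protein genes with a RefSeq promoter (45.8%) and in 7 of 48 translation factors (14.6%). Among genes tested it was in 1210 of 9923 (12.2%), and among all genes with a promoter in 2976 of 27025 (11.01%). Of the 15 genes that fell, 8 have a promoter in the table, and Eef1a1 and Eif3l hold the tract. The 8 letters CCGGAAGT were sought on either strand, anywhere from 250 bases before to 50 bases after the start. Counted per gene in the same way, they were in 9 of 48 translation factors (18.8%) and 11 of 59 ribosomal protein genes (18.6%). They were in 9.41% of genes tested that have a promoter and in 4.31% of all genes with a promoter. They stand in capitals in these 30 bases at the start of Eef1b2, the gene with the largest fall, and of Eif2b4, which had a log2 fold change of 0.02, so that the letters occurred in a gene that fell and in one that did not pass.
Eef1b2, chr1:63176821-63176850, plus strand: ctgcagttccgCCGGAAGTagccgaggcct
Eif2b4, chr5:31193120-31193149, minus strand: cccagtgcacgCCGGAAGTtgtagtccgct

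**Figure D4:**
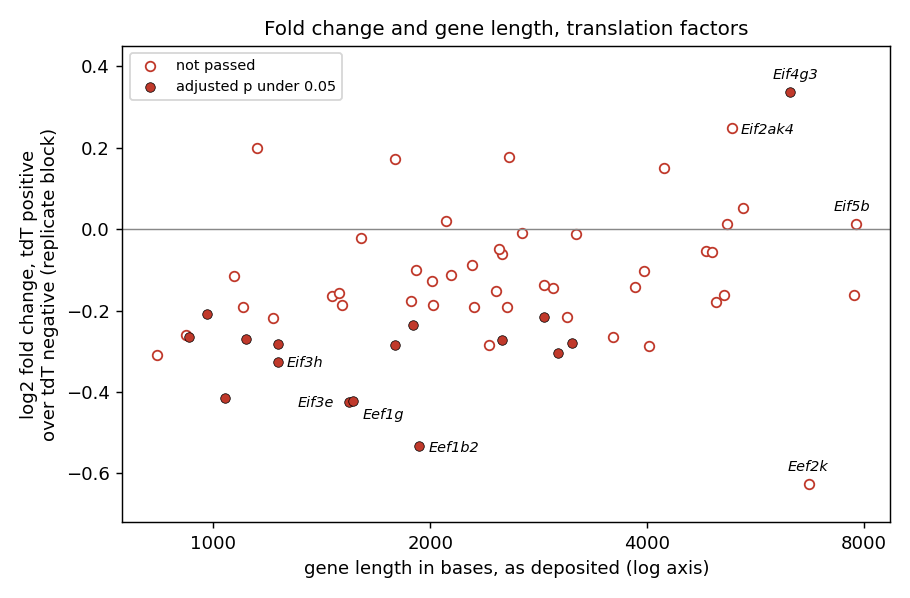
Log2 fold change of each translation factor gene from the blocked fit, plotted against the deposited gene length on a log axis, with Eif3j2 left out as it repeats Eif3j1. Filled points passed an adjusted p of 0.05. Of the 13 genes of 4000 bases or more none fell and Eif4g3 rose, whereas 11 of 24 genes below 2000 bases fell.

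The fold changes of the translation factors went with gene length. Across 61 translation factor genes, which share the same libraries, Spearman's rho between log2 fold change and length was 0.37, against 0.22 across all genes tested and -0.05 across ribosomal proteins. Pearson's correlation with log2 length was 0.31, -0.003 and -0.10 in the same order. Of 24 genes below 2000 bases 11 fell, of 24 genes from 2000 to below 4000 bases 4 fell, and of 13 longer genes none fell. Among all genes of those lengths 9.55%, 6.75% and 7.46% fell. After a smooth trend on gene length was removed from each library, 16 translation factors fell and 1 rose, against 7.99% and 5.46% of all genes in that fit, with a median of -0.16, while the median of ribosomal proteins was -0.22, with 36 lower. Of the 16 genes called before, 12 passed, and Eef1a1, Eef1e1, Eif1ax and Eif4ebp1 did not, with log2 fold changes of -0.26, -0.30, -0.13 and -0.09. Eif2b3, Eif2b5, Eif2s3x, Eif4e and Eif4g2 passed there as lower, at -0.35, -0.20, -0.31, -0.25 and -0.31, and Eif2b3, Eif4e and Eif4g2 are longer than 4000 bases. The part of gene length in these differences was not tested further.

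Genes that act beside these factors were mixed. Of 9 termination and recycling genes, 1 fell and 8 did not pass, with a median of -0.18. Abce1, the recycling ATPase, fell by 0.30 (101 ± 15.3 CPM tdT positive, 123 ± 14.3 CPM tdT negative, adjusted p = 0.0417), while the release factor genes Etf1 and Gspt1 had -0.18 and -0.19 (adjusted p = 0.0691 and 0.0549). Of 6 genes for poly(A)-binding proteins and their partners none passed. Pabpc1 had 433 ± 22.5 CPM in the tdT-positive group, against 474 ± 75.6 CPM in the tdT-negative group (-0.12, adjusted p = 0.432), and Larp1, which binds oligopyrimidine mRNAs, had 0.20 (adjusted p = 0.171). Dhps and Dohh, which make hypusine on eIF5A, had -0.21 and -0.15 and did not pass.

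Of 19 upstream regulators tested, 3 rose, 1 fell and 15 did not pass, with a median of 0.09. Rictor, a subunit of mTOR complex 2, rose by 0.36 (48.1 ± 6.06 CPM tdT positive, 37.3 ± 2.75 CPM tdT negative, adjusted p = 0.0304). Mknk2, a kinase that phosphorylates eIF4E, rose by 0.26, and Impact, an inhibitor of GCN2, by 0.29 (adjusted p = 0.0404 for both). Tpt1, itself an oligopyrimidine mRNA, fell by 0.34 (26.1 ± 3.82 CPM tdT positive, 32.9 ± 3.41 CPM tdT negative, adjusted p = 0.0188). Without the block none of these passed.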

How the data were processed

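The authors' deposited table holds raw counts per gene for 8 poly(A) RNA libraries, with an Entrez identifier, a symbol and a gene length for 17823 genes. Per the labels' protocols, a stranded kit was used on 220 ng of total RNA. Per the submitters' processing notes, reads were aligned with STAR to mm10. The sources used here do not name the counting tool, its annotation or its use of strand and of reads with several matches. Antisense partners and close copies therefore cannot be told apart.

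Counts were tested with edgeR 4.0.16 in R 4.3.3 (TMM factors, default filter of at least 10 counts, 12610 genes, quasi-likelihood test, Benjamini-Hochberg adjustment, threshold 0.05), tdT positive over tdT negative, without covariates. This fit was planned as the main one, and a blocked fit, with the replicate number added, as the alternative. Deviations from group means of same-numbered libraries correlated at 0.63, 0.28, 0.62 and 0.56 for numbers 1 to 4. Each was highest with its own number, but for number 2 the next highest, with another number, was 0.23. The pairing is therefore less clear for number 2, and the numbers were taken to pair the samples. The calls, fold changes, SE and adjusted p given per gene are therefore from the blocked fit unless stated otherwise. The labels do not say what a number shares.

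CPM are edgeR's counts scaled to library size by TMM, and RPKM are CPM per kilobase of the deposited length. Depth was 49850537 to 58516454 counts, and counting error is small beside the spread between libraries for all genes but the lowest. Within each group no library repeats another, since counts of every such pair differed beyond sampling noise. Pairs across the groups were not checked in this way. Fits were tested on simulated counts. DESeq2 1.42.0, other scalings, filters and thresholds, a length trend and left-out libraries were tried. All 62 genes are named, and of other lists those with the smallest adjusted p or a stated role. The genes, the lists and the named items were chosen with earlier results of these data known. Sequences and positions are from RefSeq on GRCm38.p6, and 48 of the 62 genes have a promoter there. A few genes of the comparison lists are not reported here.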

Additional observations from a re-analysis of the deposited data

Results flagged for a closer look

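In 15 of 126 groups of 4 libraries, for 15 translation factors, 1 library lay far from the other 3 of its group. About 1 in 20 groups is marked so by chance, which is 6.3 of 126. Library 3 was the one apart in 10 of these groups. In tdT-positive library 3 the levels stood high for Eif2s3x (12.4 CPM), Eif3d (174 CPM), Eif3e (60.2 CPM), Eif3j1 (9.88 CPM) and Eef1e1 (23.2 CPM). In tdT-negative library 3 they stood high for Eif3g (70.2 CPM), Eif1a (115 CPM) and Eif6 (209 CPM), and low for Eif4g1 (323 CPM) and Eif4g3 (82.1 CPM). tdT-positive library 4 stood high for Eef1b2 (109 CPM) and Eif5 (224 CPM). In tdT-negative library 4, Eif2ak4 (17.2 CPM) and Eef2k (8.80 CPM) stood high and Eefsec (14.4 CPM) stood low.

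Of the genes that passed with the replicate number as a block, Eef1b2, Eif3e, Eef1e1, Eif1a and Eif4g3 are among these. The library apart in Eef1b2 and Eif3e was the tdT-positive one nearest to the tdT-negative level, and in Eif1a and Eif4g3 the tdT-negative one farthest from the tdT-positive level. tdT-positive library 3 also held the most Rn45s counts. The part of that library in these values was not tested.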

How the results depend on the processing

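Directions of single genes were compared only among runs with the block. No translation factor that passed turned its direction under any of these alternatives. With the block, 8 others did in at least 1 alternative, all within 0.0532 of 0 as reported. With the length trend removed these were Eif2b2, Eif3a, Eif4g1 and Eif5b, at 0.02, -0.08, -0.04 and -0.13. The median of all genes was 0.01 as reported, -0.07 with library totals, -0.03 with upper-quartile factors and -0.01 with the length trend removed. Without the block, 0 translation factors passed under every scaling and filter. DESeq2 called 7 lower and 1 higher, 25 ribosomal proteins lower, and 594 of all genes lower and 327 higher. No filter gave 184 lower and 32 higher of all genes, and 1 CPM in 4 libraries and library totals 1 lower each. The median of the translation factors was -0.25 with library totals and -0.21 with upper-quartile factors. Leaving out 1 library gave 1 to 394 lower and 1 to 62 higher of all genes, 0 to 2 translation factors and 0 to 2 ribosomal proteins lower, and a median of -0.21 to -0.13. The replicate block gave 985 lower and 1013 higher of all genes, 15 and 1 translation factors, and 48 ribosomal proteins lower.

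With the block, DESeq2 called 27 translation factors lower, among 1249 of all genes, and upper-quartile factors 24 among 1164 (median -0.20). Library totals gave a median of -0.25 and 422 of all genes higher and 996 lower, so that higher genes were 29.8% of calls against 50.7%. Upper-quartile factors and the length trend gave 41.5% and 40.6%, and the trend a median of -0.22 for ribosomal proteins. At an adjusted p of 0.01, 3 translation factors, 3 ribosomal proteins and 135 of all genes were lower, and 0 translation factors and 99 of all genes higher. At 0.1, 25 translation factors and 1551 of all genes were lower, and 2 and 1631 higher. Without number 1, 5 translation factors, 19 ribosomal proteins and 604 of all genes were lower and 1 and 419 higher. Without number 2 these were 3, 4 and 253 lower and 0 and 94 higher, without number 3 they were 3, 8 and 126 lower and 0 and 229 higher, and without number 4 they were 18, 56 and 1304 lower and 1 and 1231 higher. The calls of Eef1b2, Eef1g and Eif3e held in all 15 alternatives with the block. Differences under a log2 fold of about 0.5 are at the limit of what 4 libraries a group can show. The cause of these shifts was not tested.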

Other observations

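Genes of the integrated stress response, which follow phosphorylated eIF2 through the factor ATF4, were mostly not called. Of 9 tested, 1 fell and 8 did not pass with the replicate number as a block, with a median log2 fold change of -0.07. The gene that fell was Vldlr, a lipoprotein receptor, at -2.81 (adjusted p = 0.00941). Asns, which makes asparagine, had -0.62 and did not pass (adjusted p = 0.0619).

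Myc, whose protein activates many ribosome and translation factor genes, averaged 8.97 ± 1.40 CPM in tdT-positive macrophages, against 16.2 ± 11.7 CPM in tdT-negative ones (SD, n = 4 each). This was a log2 fold change of -0.65 that did not pass (edgeR adjusted p = 0.177). Mycl had -1.07 (edgeR adjusted p = 0.0931) and Max, their partner, 0.07.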
